A study of Rattus norvegicus with 2 samples.

Results

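Genes of mitosis and of the G2 phase were measured in single cells of the rat line IEC-6, which is of small-intestinal epithelial origin. Of 48 listed symbols, 45 were in the gene lists of both libraries, out of 15894 genes in both lists and 18256 in either. Cks2, Ube2c and Hmmr are not analysed here. The rule names the symbols and uses no measured value, but the members were chosen with earlier results of these data known. The series holds 1 library labelled TNF, from cells given 100 ng/mL of recombinant rat TNF, an inflammatory cytokine, for 72 hours in each of 10 cycles, and 1 control library from cells given phosphate-buffered saline. Both came from the same cell line, grown in serum and insulin and thawed from frozen stock.

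Each group holds 1 library, so differences have no replicate check, the conditions could not be tested, and no p-value was computed. The titles of the samples carry different prefixes, left unexplained in the labels, so that preparation and treatment cannot be told apart. Ccl2, a chemokine that TNF is known to induce, stood at 60.9 CPM (counts per 1000000 counts of the summed cells) in the library labelled TNF and at 969.8 CPM in controls. Nfkbia, another known TNF-induced gene, stood at 112 and 626 CPM, whereas Tnfaip3, induced likewise, stood at 28.8 and 11.1 CPM. Since the first pair go against the label, directions here belong to the labelled library rather than to the treatment. Intervals in parentheses are 95% intervals of counting error only: exact Poisson for a level, exact conditional binomial for a ratio, and exact binomial for a share.

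The libraries held 3457 and 5712 cells, with 14604393 and 24207943 counts, in the order TNF-labelled and control. The median cell had 3566 and 2902.5 counts. Of the 10 epithelial markers, 7 were in the files and 4 reached 10 CPM in each library, and the list summed to 2573 and 3123 CPM. Most of that was Krt8, at 2193 and 2456 CPM, followed by Cdh1 at 313 and 424 CPM. Krt18 was at 27.05 and 93.4 CPM, Spint2 at 36.7 and 140.2 CPM, and Epcam had 4 counts in each. Of 8 fibroblast markers, 3 reached 10 CPM in the TNF-labelled and 4 in the control library, and the list summed to 519 and 647 CPM. Col1a1 was at 393 and 355 CPM, Dcn at 103 and 234 CPM and Col3a1 at 4.18 and 40.5 CPM, while Pdgfra and Thy1 were at 0 in the TNF-labelled library and had 16 and 1 counts in the other. Of the markers of white blood cells, 1 reached 10 CPM in each library, Cd14. The blood cell marker Ptprc had 2 and 18 counts, and the endothelial markers summed to 0.890 and 1.65 CPM. The libraries shared 24 cell barcodes, 5 of them on Top2a-high cells (below) of the TNF-labelled library, and without them the members past 2-fold were the same 4 and 3. These markers were not tested for a part in any result.

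Entry into mitosis is driven by the kinase Cdk1 bound to a B-type cyclin. Aurora kinases, kinesin motors and spindle proteins then build the spindle, the kinetochore ties chromosomes to it, and a checkpoint holds back the anaphase-promoting complex until all chromosomes are attached. Many of these genes are switched on together late in the cycle, through promoter elements known as the CHR (cell cycle genes homology region) and the CCAAT box, which are bound by MuvB complexes and by NF-Y. In intestinal epithelium, division of this kind belongs to the crypt.

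The promoters of the members past 2-fold between the libraries are shown because those members differed in opposite directions. RefSeq promoter windows, 250 bases before to 50 after the gene's start on the GRCr8 assembly, matched 39 of the 45 members. Aurkb, Esco2, Gas2l3, Kif14, Kif2c and Tpx2 had no single entry. Both strands were searched. The CHR letters were TTTGAA, and TTCGAA as a variant of them that reads alike on each strand. The other motif searched was CCAAT. A match of one can share its end letter with a match of the other, and every match is in capitals below.
Top2a, GRCr8 chr10:84473044-84473343, minus strand: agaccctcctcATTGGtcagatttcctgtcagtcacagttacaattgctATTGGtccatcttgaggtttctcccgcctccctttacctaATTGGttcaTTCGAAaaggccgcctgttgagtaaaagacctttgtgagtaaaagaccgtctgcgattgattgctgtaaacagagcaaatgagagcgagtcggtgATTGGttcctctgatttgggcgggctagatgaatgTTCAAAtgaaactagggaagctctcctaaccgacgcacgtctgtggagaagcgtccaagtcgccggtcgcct
Cenpe, GRCr8 chr2:226310807-226311106, plus strand: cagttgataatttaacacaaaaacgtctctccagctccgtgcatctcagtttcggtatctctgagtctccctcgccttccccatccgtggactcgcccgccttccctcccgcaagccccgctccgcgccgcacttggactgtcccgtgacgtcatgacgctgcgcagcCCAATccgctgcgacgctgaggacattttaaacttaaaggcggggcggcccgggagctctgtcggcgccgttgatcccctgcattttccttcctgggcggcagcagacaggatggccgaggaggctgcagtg
Cdk1, GRCr8 chr20:19265043-19265342, plus strand: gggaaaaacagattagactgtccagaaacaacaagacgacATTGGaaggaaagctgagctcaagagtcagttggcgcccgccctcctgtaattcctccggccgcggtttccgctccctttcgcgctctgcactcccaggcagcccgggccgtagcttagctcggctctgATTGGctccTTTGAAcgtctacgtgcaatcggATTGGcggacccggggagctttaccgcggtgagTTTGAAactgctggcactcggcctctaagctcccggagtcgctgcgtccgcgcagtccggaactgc
Cdc20, GRCr8 chr5:137255750-137256049, minus strand: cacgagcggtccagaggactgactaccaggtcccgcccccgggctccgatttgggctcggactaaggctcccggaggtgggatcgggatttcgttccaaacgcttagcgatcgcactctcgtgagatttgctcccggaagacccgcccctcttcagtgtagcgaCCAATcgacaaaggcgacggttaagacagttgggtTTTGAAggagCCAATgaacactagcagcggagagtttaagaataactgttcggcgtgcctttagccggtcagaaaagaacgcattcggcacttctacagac
The Top2a window held 2 CHR matches and 4 CCAAT matches, and that of Cdk1 held 2 and 3. The Cdc20 window held 1 and 2, and that of Cenpe held 0 and 1. CHR letters occurred in 28 of the 39 member windows, or 71.8%, against 19.7% of all 33469 windows of that length. CCAAT occurred in 30, or 76.9%, against 37.5%, and both motifs in 23, or 59.0%, against 7.95%. A match describes the letters in the window and is not evidence of binding.

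Mitotic genes went both ways between the libraries, and the module had no common direction. A gene was counted as different at a ratio of at least 2, TNF-labelled over control, and a level of 10 CPM or more in whichever library was higher, a minimum that 42 of the 45 members met. The 3 others were Cenpa, Prr11 and Pif1. Top2a, Kif14, Cenpe and Gas2l3 were at least 2-fold higher, 4 of 42 against 5.27% of all 8550 genes tested. Aurkb, Cdk1 and Cdc20 were at least 2-fold lower, 3 of 42 against 8.19% of all genes. Both shares lie near the background, so nothing is read from them about the list. The members' median log2 ratio was 0.01, against -0.07 for all genes tested. TMM scaling, which evens out the composition of libraries, moved these medians to 0.17 and 0.10, a shift of 0.18 for all genes. It changed the genes past 2-fold from 451 higher and 700 lower to 750 higher and 444 lower. The counting interval lay above a ratio of 1 for 19 of the 45 members, below 1 for 20, and held 1 for 6. This split was not computed over all genes, so nothing is read from it about the list. Summed over the 44 members other than Top2a, the level was 4105 CPM against 4029 CPM in controls, a ratio of 1.019 (1.01 to 1.03). The plot of levels by gene shows the crossing pattern, with both libraries taking the higher place in nearly every group of genes.

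**Figure D1:**
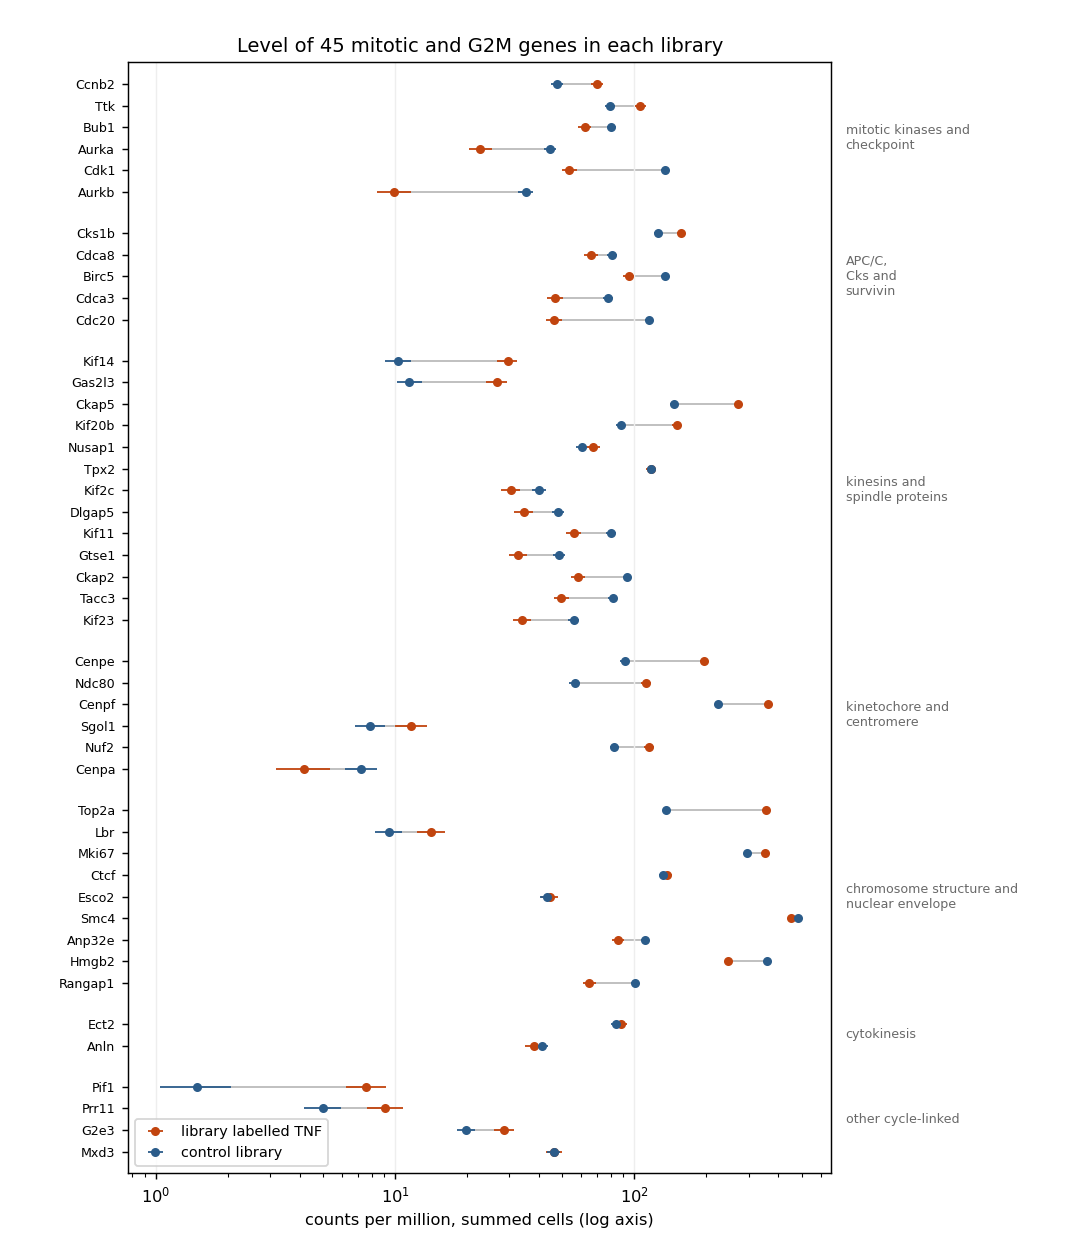
Level of each of the 45 genes in CPM of summed cells (log axis), with the library labelled TNF in orange and the control library in blue, error bars giving exact Poisson 95% intervals of counting error, and genes grouped by role. The kinetochore genes Cenpe, Ndc80, Cenpf and Nuf2 are higher in the library labelled TNF, and Cdk1, Aurkb and Cdc20 are higher in the other.

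Of the kinases and cyclin that drive mitosis, 4 of 6 stood lower where labelled TNF. Such counts by group, here and below, were not set against all genes, so nothing is read from them about a group. Cdk1 (ENSRNOG00000000632), the kinase of mitotic entry, had 782 counts in the TNF-labelled library, or 53.5 CPM (49.9 to 57.4). Controls had 3244 counts, or 134 CPM (129 to 139), for a ratio of 0.400 (0.369 to 0.432). Aurkb (ENSRNOG00000005659), the kinase that corrects faulty spindle attachments, had 145 counts, or 9.93 CPM (8.38 to 11.7), against 850 counts, or 35.1 CPM (32.8 to 37.6). Its ratio of 0.283 (0.235 to 0.338) was the lowest of the 45 members. Aurka (ENSRNOG00000004479), the aurora kinase of centrosomes and spindle poles, stood at 22.7 and 44.4 CPM, a ratio of 0.512 (0.452 to 0.580), and missed the 2-fold mark. It passed the mark at 1700 counts per cell, and also without the deepest 5% of cells. Bub1, a checkpoint kinase, was at 62.0 and 80.1 CPM. Ccnb2 and Ttk went the other way. Ccnb2 (ENSRNOG00000012678), a B-type cyclin that activates Cdk1, was at 69.8 (65.6 to 74.3) against 47.5 CPM (44.8 to 50.3), a ratio of 1.47 (1.35 to 1.60). The kinase Ttk, which starts checkpoint signalling, was at 106 and 79.1 CPM. Cdk1 and one of its cyclins thus had ratios on opposite sides of 1.

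Members linked to the anaphase-promoting complex and to the chromosomal passenger complex were lower in 4 of 5 cases. Cdc20 (ENSRNOG00000028415), the activator of the anaphase-promoting complex, had 675 counts or 46.2 CPM (42.8 to 49.8) in the TNF-labelled library. Its 2796 counts in controls made 115.5 CPM (111 to 119.9), and the ratio was 0.400 (0.367 to 0.435). The chromosomal passenger subunits Birc5 (survivin) and Cdca8 (borealin), which work in one complex with Aurkb, had ratios of 0.704 and 0.816. All 3 members from that complex had ratios under 1, with Aurkb the lowest. Cdca3, a trigger of mitotic entry, had a ratio of 0.600. Cks1b, a small subunit of cyclin-dependent kinases, was at 156 against 125 CPM, a ratio of 1.25 (1.18 to 1.32). It has a close paralog, Cks2, and reads of near-identical stretches could be split between them.

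Kinesins and spindle proteins ranged from 0.609 to 2.87. Kif14 (ENSRNOG00000037211), a kinesin of the late spindle and of cytokinesis, had 431 counts, or 29.5 CPM (26.8 to 32.4), against 249 counts, or 10.3 CPM (9.05 to 11.6). Its ratio was 2.87 (2.45 to 3.37). Gas2l3 (ENSRNOG00000025198), a linker of actin and microtubules, was at 26.6 (23.99 to 29.3) against 11.5 CPM (10.2 to 12.9), a ratio of 2.31 with an interval of 1.98 to 2.71 that reaches just under 2-fold. Ckap5, a microtubule polymerase, was at 271 and 146 CPM, and Kif20b, a kinesin of cytokinesis, at 150 and 87.9 CPM. Nusap1, which bundles spindle microtubules, had a ratio of 1.11, and Tpx2, the activator of Aurka, one of 1.00. The other 7 lay between 0.609 and 0.760, all with intervals under 1. They were Kif2c, a microtubule depolymerase, the spindle stabilisers Dlgap5 and Tacc3, the microtubule-binding Gtse1 and Ckap2, and the motors Kif11 and Kif23. Among them, Kif11, the motor that pushes spindle poles apart, was at 55.8 against 79.8 CPM. Kif23, a motor of the central spindle, was at 34.0 against 55.9 CPM.

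Of 6 kinetochore genes 5 stood higher in the TNF-labelled library, with only Cenpe past 2-fold. Together the 6 summed to 800 against 468 CPM, a ratio of 1.71 (1.66 to 1.75). Cenpe (ENSRNOG00000009339), the kinesin that moves chromosomes to the spindle equator, had 2850 counts, or 195 CPM (188 to 202). Controls had 2207 counts, or 91.2 CPM (87.4 to 95.05), and the ratio was 2.14 (2.02 to 2.26). Ndc80 and Nuf2, which form one microtubule-binding complex, were at 111 against 56.5 CPM and at 115 against 82.5 CPM. The ratio of Ndc80, 1.97 (1.84 to 2.12), sat just under the 2-fold mark and passed it with either of the other scalings tried. Cenpf, a large kinetochore protein of G2 and mitosis, was at 362 and 223 CPM, and Sgol1, the protector of centromere cohesion, at 11.7 and 7.85 CPM. Cenpa, the histone variant that marks centromeres, had 61 and 175 counts, under the minimum level in both libraries. Its ratio was 0.578 (0.424 to 0.777).

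Genes of chromosome structure differed most for Top2a. Top2a (ENSRNOG00000032404), the topoisomerase that untangles sister chromosomes, had 5183 counts, or 355 CPM (345 to 365), against 3295 counts, or 136 CPM (132 to 141). The ratio was 2.61 (2.50 to 2.72). Mki67 (ENSRNOG00000028137), which coats mitotic chromosomes and is the standard marker of proliferation, was at 350.2 (341 to 360.0) against 296 CPM (289 to 303), a ratio of 1.18 (1.14 to 1.23). These common markers of dividing cells thus gave ratios that differ well beyond counting error. Smc4, a condensin subunit, was at 453 and 481 CPM, a ratio of 0.943 (0.914 to 0.972) that turned to 1.06 with TMM scaling. Hmgb2, a chromatin protein of cycling cells, was at 247 (239 to 255) against 358 CPM (351 to 366). Rangap1 and Anp32e, a Ran regulator and a histone chaperone, had ratios of 0.643 and 0.775. Lbr, the lamin B receptor, had a ratio of 1.505 (1.24 to 1.82). Esco2, a cohesin acetyltransferase, and Ctcf, an insulator protein, had ratios of 1.03 and 1.04 with intervals that held 1.

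The cytokinesis genes Ect2 and Anln, the latter an actin ring scaffold, had ratios of 1.06 and 0.926, and both intervals held 1. Anln turned to 1.04 with TMM scaling. Among the remaining members, G2e3, a ubiquitin ligase of the G2 phase, had a ratio of 1.44 (1.26 to 1.65), and Mxd3, a MAX-binding transcription factor, one of 1.01. Prr11 had 133 and 121 counts, a ratio of 1.82. Pif1, a DNA helicase, had 111 counts against 36, or 7.60 against 1.49 CPM, a ratio of 5.11 (3.48 to 7.67). That was the largest of the 45, but below the minimum level in both libraries.

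**Figure D2:**
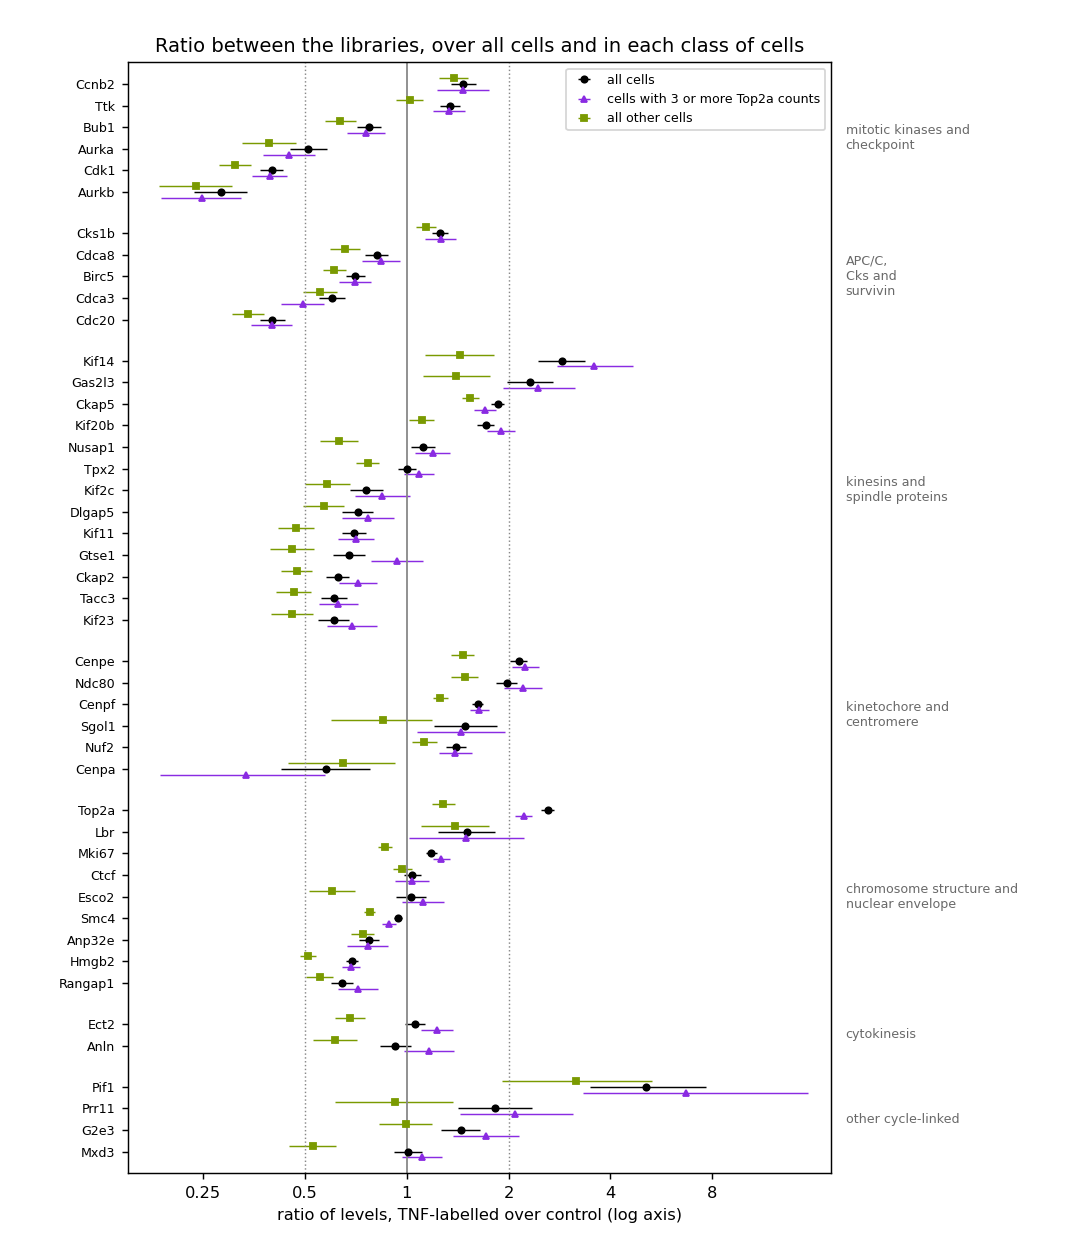
Ratio of levels, TNF-labelled over control (log axis), for each of the 45 genes over all cells (black circles), in cells with 3 or more Top2a counts (purple triangles) and in all other cells (green squares), with exact conditional binomial 95% intervals of counting error. Solid and dotted lines mark ratios of 1, 0.5 and 2, and the green squares lie left of the purple triangles for 42 of the 44 genes other than Top2a.

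The next question was whether the members were carried by the same cells. Cells with 3 or more Top2a counts, called Top2a-high here, numbered 512 in the TNF-labelled library, or 14.8% (13.6 to 16.0). In the control library they numbered 347, or 6.07% (5.47 to 6.73). This is a range of a count and not a cell type. Close to the limit, 100 and 138 cells had exactly 3 counts, and 201 and 269 had 2. Top2a-high cells were deeper, with a median of 6580.5 counts against 3251 in other cells of the TNF-labelled library, and 7959 against 2709 in the control library. They held 24.3% and 13.4% of all counts. After each cell was thinned to 1700 counts, 6.82% and 0.926% of cells kept 3 or more Top2a counts. Among cells with 3000 to 6000 counts, the shares were 10.2% and 4.29%. The TNF-labelled library therefore had the larger share at each of these depths, while the share itself depended on depth. Top2a counts define this share, and Top2a itself had a ratio of 2.61 between the libraries. The larger share is thus no separate result about the number of dividing cells. No doublet caller was run, and no cell type that should lack these genes was present to measure free RNA. The part of either in these shares was not tested.

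Most members were concentrated in Top2a-high cells of each library. Concentration is the CPM in Top2a-high cells divided by the CPM in all other cells of the same library, and Top2a itself, which chose the cells, is left out. Of 43 members with at least 10 CPM in Top2a-high cells, 38 were at least 2-fold concentrated in the TNF-labelled library, against 3.48% of all genes. In the control library 35 of 43 were, against 1.77% of all genes. In both libraries at once it was 34 of 42, against 1.82%. The median member was 3.27-fold concentrated where labelled TNF and 2.498-fold in controls, against 0.984 and 0.997 for all genes. These cells were picked by a gene of the same phase, and many of these genes are known to be expressed together, so the comparison describes the cells and is no test. Of the 44 members' summed counts, 50.5% lay in Top2a-high cells of the TNF-labelled and 26.9% in those of the control library.

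Concentration varied among members in a similar order in both libraries. Across the 44 members, the log2 values correlated with a Pearson r of 0.797 and a Spearman rank correlation of 0.745. This describes genes that were measured in the same cells and is given without a p-value. Among the 38 with at least 10 CPM in both libraries, Mxd3, Kif14 and Nusap1 led in the TNF-labelled library. Aurka, Mxd3 and Nusap1 led in the control library. Mxd3 was 7.39-fold (6.26 to 8.76) and 3.52-fold (3.10 to 3.98) concentrated, and Nusap1 6.54-fold (5.71 to 7.498) and 3.47-fold (3.11 to 3.86). Kif14 was 7.23-fold (5.86 to 8.95) and 2.90-fold (2.19 to 3.81), and Aurka 4.13-fold (3.30 to 5.16) and 3.60-fold (3.17 to 4.09). The low end held the same 3 members in both. Anp32e was 1.39-fold (1.23 to 1.56) and 1.34-fold (1.21 to 1.48), Ccnb2 1.55-fold (1.35 to 1.76) and 1.46-fold (1.25 to 1.69), and Ctcf 1.56-fold (1.42 to 1.72) and 1.47-fold (1.34 to 1.60). Ctcf and Anp32e act in chromatin outside mitosis as well, whereas Ccnb2 is a mitotic cyclin.

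The members other than Top2a that were past 2-fold between the libraries were all at least 2-fold concentrated in Top2a-high cells of each, but not to the same degree. Cdk1 was 3.34-fold (2.89 to 3.85) concentrated in the TNF-labelled and 2.63-fold (2.44 to 2.84) in the control library, and Aurkb 2.99-fold (2.13 to 4.20) and 2.89-fold (2.49 to 3.34). Cenpe was 4.43-fold (4.11 to 4.78) and 2.89-fold (2.64 to 3.17). For comparison, Mki67, which was under 2-fold between the libraries, was 3.64-fold (3.44 to 3.85) and 2.49-fold (2.36 to 2.62) concentrated. Gas2l3 was 5.78-fold (4.68 to 7.18) and 3.31-fold (2.55 to 4.26), and Cdc20 2.41-fold (2.06 to 2.81) and 2.06-fold (1.88 to 2.24). With TNF-labelled values of Kif14, Gas2l3 and Cenpe at 7.23-fold, 5.78-fold and 4.43-fold, the intervals of these higher members lay above those of the lower members Cdk1 and Cdc20. The interval of Aurkb, also a lower member, overlapped that of Cenpe. In the control library the intervals of Kif14 (2.19 to 3.81), Gas2l3 and Cenpe all overlapped that of Cdk1. Across the 44 members, the ratio between libraries and the concentration had a Spearman rank correlation of 0.358 in the TNF-labelled and 0.153 in the control library. Both measures use the same counts, and this is given as a description. The plot of concentration by library places these members away from the mass of other genes.

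**Figure D3:**
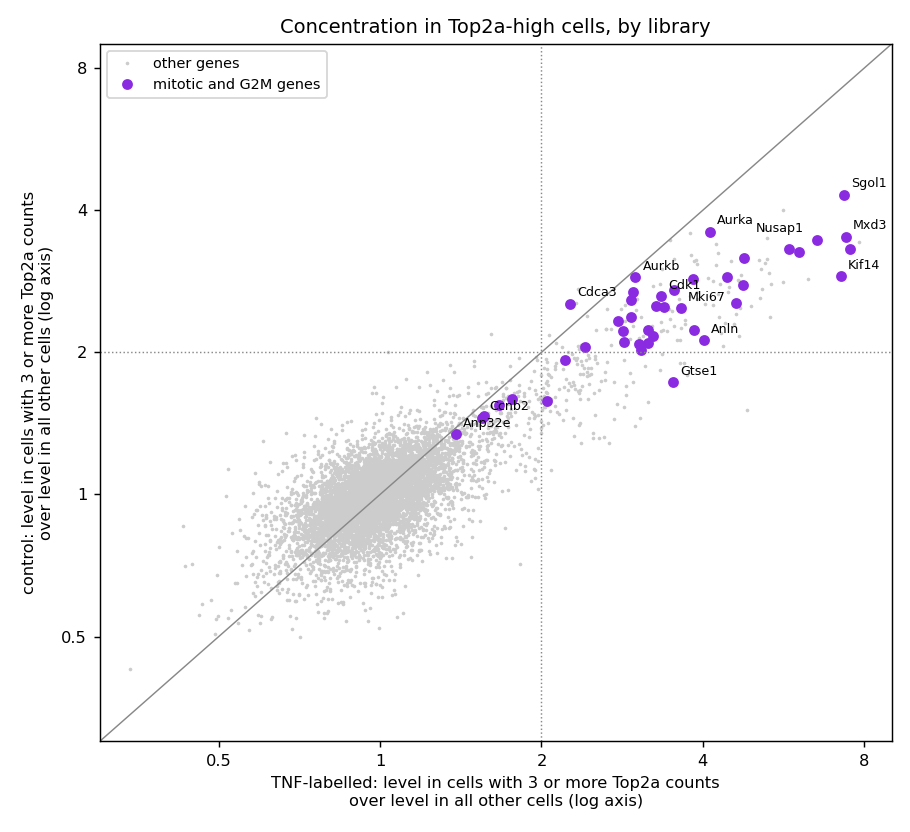
Level in cells with 3 or more Top2a counts over the level in all other cells, for the TNF-labelled library (horizontal, log axis) and the control library (vertical, log axis). Purple points are the 42 members and grey points other genes with at least 10 CPM in Top2a-high cells of both libraries, dotted lines mark 2-fold and the solid line equal values; 34 members lie past 2-fold in both.

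Concentration was larger in the TNF-labelled library for 42 of 44 members, the exceptions being Cenpa and Cdca3. By construction, these are the members whose ratio was higher within Top2a-high than within other cells. The count was 33 of 44 with cells thinned to 1700 counts, where only 44 control cells were selected. There 30.2% of all genes tested were at least 2-fold concentrated in the control library. Among cells with 3000 to 6000 counts it was 30 of 44, with 67 control cells selected. The same count over all genes was not computed, so nothing is read from it about the members. Top2a itself was 2.22 times (2.09 to 2.35) higher in TNF-labelled than in control Top2a-high cells, so the same limit of 3 counts did not pick cells of equal Top2a level. Whether this plays a part in the larger concentration was not tested.

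Within Top2a-high cells, members again lay on both sides. Of the 44 members, 6 were at least 2-fold higher in TNF-labelled Top2a-high cells, Cenpe, Gas2l3, Kif14, Ndc80, Pif1 and Prr11, against 6.59% of all genes. Another 6 were at least 2-fold lower, Aurka, Aurkb, Cdc20, Cdca3, Cdk1 and Cenpa, against 9.59% of all genes. Pif1, Prr11 and Cenpa, which were under the minimum over all cells, rested on few counts there. These were 66 against 9, 94 against 41 and 19 against 52 counts. Pif1 and Cenpa reached 10 CPM only in the library where they were higher. Kif14 stood at 84.9 against 23.8 CPM there, a ratio of 3.57 (2.77 to 4.65), and Cdk1 at 114 against 289 CPM, a ratio of 0.394 (0.350 to 0.443). Aurkb stood at 20.04 against 80.9 CPM, a ratio of 0.248 (0.188 to 0.323). Cdk1 and Aurkb thus stood lower inside Top2a-high cells of the library with the larger share of them. Ttk and Ccnb2 went the other way there, with ratios of 1.33 and 1.46. The limit of 3 counts did not pick cells of equal Top2a level in the libraries. The median log2 ratio was 0.13, against -0.06 for all genes, and the summed level of the 44 was 8539 against 8113 CPM, a ratio of 1.05 (1.04 to 1.07). That summed ratio ranged from 0.902 to 1.39 over the other ways of choosing cells or scaling, so it had no fixed direction.

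Outside Top2a-high cells, 13 of 44 members had ratios above 1. The number was 16 with TMM scaling and 19 with the 5% of cells highest in Top2a as the selected cells. It was not computed over all genes, so nothing is read from it about the members. Of 40 tested there, 9 were at least 2-fold lower, Aurka, Aurkb, Cdc20, Cdk1, Ckap2, Gtse1, Kif11, Kif23 and Tacc3, against 8.31% of all genes. At least 2-fold higher were 0, against 5.22% of all genes. The median log2 ratio was -0.63, against -0.08 for all genes. The summed level of the 44 was 2685 against 3398 CPM, a ratio of 0.790 (0.779 to 0.801). That ratio lay between 0.782 and 0.974 under the alternatives tried, the latter with the 5% of cells highest in Top2a selected. All alternatives still selected cells by Top2a or Mki67. By construction, the ratio is tied to those over all cells, 1.019, and within Top2a-high cells, 1.05. It also depends on the share of all counts in Top2a-high cells, 24.3% and 13.4%, so it is no separate result. The number at least 2-fold lower was 4 with TMM scaling and 3 with the 5% of cells highest in Top2a as the selected cells. Mki67 crossed 1 between the classes, at 1.27 (1.19 to 1.34) in Top2a-high and 0.864 (0.823 to 0.908) in other cells. Nusap1 was at 1.19 (1.06 to 1.34) and 0.632 (0.555 to 0.718), and Ect2 at 1.23 (1.10 to 1.37) and 0.681 (0.615 to 0.753). Cenpe, Ndc80, Cenpf and Ckap5 stayed above 1 in both classes.

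The members' level climbed with the number of Top2a counts in a cell. In the TNF-labelled library the 44 members summed to 2311 CPM in 2057 cells without a Top2a count, 5669 CPM in cells with 3 or 4 counts, and 10719 CPM in the 150 cells with 10 or more. In the control library the values were 2981 CPM in 4026 cells, 7400 CPM, and 9878 CPM in 27 cells. The control library was higher in every class but the last. The libraries were not matched exactly within a class, since the last held 2201 Top2a counts in those 150 cells and 316 in those 27, and cells with 2 Top2a counts had median depths of 3019 and 5781. Cdk1 climbed from 29.2 to 127 CPM and from 93.6 to 338 CPM, and so stayed lower in the TNF-labelled library in every class. Kif14 was at 6.53 and 5.49 CPM in cells without a Top2a count and at 98.2 and 34.4 CPM in cells with 5 to 9. In the last class of the control library it rested on 2 counts. Median depth was also higher in the last class than in the first, at 8577.5 against 3232 counts and at 12548 against 2585.5, and its part was not tested.

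**Figure D4:**
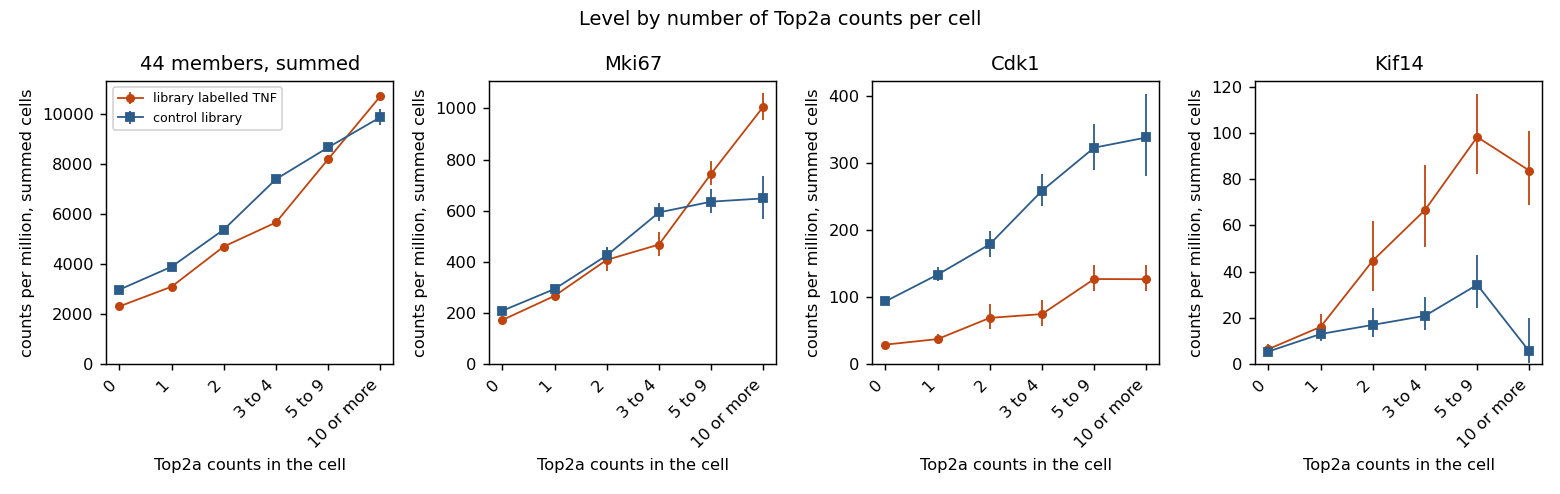
Level in CPM of summed cells against the number of Top2a counts in the cell, for the 44 members summed, Mki67, Cdk1 and Kif14, with the library labelled TNF in orange circles, the control library in blue squares, and exact Poisson 95% intervals of counting error. The summed level climbs from 2311 to 10719 CPM and from 2981 to 9878 CPM, while Cdk1 stays higher in the control library in every class.

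Cells with 3 or more Mki67 counts made up 17.4% of the TNF-labelled and 14.5% of the control library, against 14.8% and 6.07% for Top2a. Of Top2a-high cells, 70.3% and 76.1% were also Mki67-high. Of Mki67-high cells, 59.9% and 31.8% were also Top2a-high. Genes of S phase were also higher in Top2a-high cells, with a median cell at 5823 against 2602 CPM for the list's sum in the TNF-labelled library and 5111 against 3015 CPM in the control library. Epithelial markers were at a median of 2231 against 2463 CPM and 2527 against 3050 CPM.

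To compare the share of cells holding a transcript at equal depth, each cell was thinned to 1700 counts, which left 2728 TNF-labelled and 4753 control cells and left out 729 and 959. Of the 45 members, the share of cells with a count was higher in the TNF-labelled library for 15 and lower for 18, by the interval of the difference, which held 0 for 12. These shares were not computed over all genes, so nothing is read from the split about the members. Ckap5 was found in 32.2% (30.5 to 34.0) of cells labelled TNF against 18.5% (17.4 to 19.6) in controls, and in 49.3% and 33.1% without thinning. Top2a was found in 27.1% (25.5 to 28.8) and 18.1% (17.0 to 19.2), and in 40.5% and 29.5% without thinning. Cdk1 was found in 7.62% (6.66 to 8.69) and 17.97% (16.9 to 19.1), and in 16.4% and 31.4% without thinning. For Mki67 the shares of 34.1% and 32.6% differed by 1.52 percentage points (-0.719 to 3.77). The median thinned cell held counts of 4 of the 44 members in the TNF-labelled and 5 in the control library. Cells that were Top2a-high before thinning held 10 in both, against 3 and 4 in other cells.

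The rest of the mitotic machinery, given by a list of 93 other mitotic genes of which 82 were in both files, also lay on both sides. Of 79 tested, 2 were at least 2-fold higher, against 5.27% of all genes, 9 lower, against 8.19%, and 68 under 2-fold, with a median log2 ratio of 0.01 beside -0.07 for all genes. With TMM scaling 4 were higher and 7 lower. The higher ones were Cbx5, a heterochromatin protein, at 345 against 169 CPM, and Nde1, a dynein partner, with a ratio of 2.48 (2.10 to 2.93). The lower ones were led by Ccna2, the A-type cyclin, at 14.8 against 49.9 CPM, a ratio of 0.296 (0.255 to 0.343). The mitotic kinase Pbk, the motors Kifc1 and Kif20a, the checkpoint protein Mad2l1, the abscission protein Cep55, the histone variant H2afx, and Fam64a and Fam83d had ratios between 0.341 and 0.486. The abundant tubulin genes Tubb4b and Tubb5 had ratios of 1.13 and 1.02, and reads of near-identical tubulin copies are uncertain. In Top2a-high cells, 61 of 80 were at least 2-fold concentrated in the TNF-labelled library, against 3.48% of all genes, and 42 of 79 in controls, against 1.77%.

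Regulators of these genes lay on both sides. Of 16 tested among MuvB, B-Myb, FoxM1, E2F and RB family genes, 1 was at least 2-fold higher, against 5.27% of all genes. Another 1 was at least 2-fold lower, against 8.19%. Both counts lie near the background, so nothing is read from them about the list. Mybl1, of the MYB family, was higher at 179 against 77.2 CPM. Lin54, the MuvB subunit that binds CHR elements, was lower at 16.6 against 46.9 CPM, a ratio of 0.355 (0.308 to 0.408). The other 14 were under 2-fold, and the median log2 ratio was 0.39, beside -0.07 for all genes. Of these regulators, 6 of 16 were at least 2-fold concentrated in Top2a-high cells where labelled TNF, against 3.48% of all genes. In controls 3 of 17 were, against 1.77%. Of the cyclin-dependent kinase inhibitors, 3 were tested, too few for a share to set against that of all genes. Cdkn2c, an inhibitor of the G1 kinases, was lower at 33.0 against 71.8 CPM, though under 2-fold with TMM scaling, while Cdkn1a and Cdkn1b had ratios of 0.796 and 0.619. None of the 3 was 2-fold concentrated in Top2a-high cells. Of 55 S phase genes tested, 2 were at least 2-fold higher, Prim1 and Wdr76, against 5.27% of all genes. At least 2-fold lower were 4, the helicase subunits Mcm2 and Mcm4, the flap nuclease Fen1 and the clamp loader subunit Rfc4, against 8.19%. The count lower was 10 with cells thinned to 1700 counts, and the count higher 1 at a minimum of 20 CPM. The list's median log2 ratio was -0.07. In Top2a-high cells, 20 of 57 S phase genes were at least 2-fold concentrated where labelled TNF, against 3.48% of all genes. In controls it was 2 of 55, against 1.77%. The most abundant, Prim1, a primase subunit, was at 619 against 221 CPM, and Pcna, the replication clamp, at 572 against 484 CPM.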

How the data were processed

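Each library is 1 sample of 10K Genomics single-cell RNA sequencing. The authors deposited raw counts for every gene in every cell, whole numbers without normalization. Rnor_5.0 was the build, per the submitters' processing notes. Aligner, counter, annotation, cell filter and read strand are not given in the sources consulted, and neither is whether counts are unique molecules. Filters of 500 counts, 300 genes and 20% mitochondrial counts removed 0 and 1 barcodes. One count was worth 0.0685 CPM where labelled TNF and 0.0413 CPM in controls. Counts were summed over cells and divided by the library's total. A library under 3 counts entered a ratio at 3. Thinning drew counts without replacement with a fixed seed. Alternatives were TMM scaling with edgeR 4.0.16 and median-of-ratios scaling, other minimum levels, other cell filters and other Top2a or Mki67 limits. Computations ran in Python 3.11.15 with scipy 1.17.1, and were tested on simulated data. The members and lists were chosen with earlier results of these data known. Every member in both gene lists is accounted for, with full values for those past 2-fold, the 3 most and 3 least concentrated, and the leading kinases and markers. Of the other lists, the genes past 2-fold and the 2 most abundant are named.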

Additional observations from a re-analysis of the deposited data

How the results depend on the processing

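No paired analysis was possible because each group holds 1 library. All 7 members past 2-fold over all cells were also past it under each of the 9 alternatives tried. TMM scaling added Ndc80 and Ckap5 to the higher ones, and moved the members' median log2 ratio to 0.17 and the median of all genes by 0.18, so the members' distance from all genes went from 0.08 to 0.07. That distance was 0.01 after thinning and with the mean of per-cell CPM, 0.03 at a minimum of 20 CPM and 0.04 without the deepest 5% of cells. The members' median was then -0.04, -0.04, -0.04 and -0.03, so its sign is not fixed. TMM scaling also turned the split of all genes past 2-fold from 451 higher and 700 lower to 750 and 444. With no minimum level the split was 979 and 2553. Only Anln, Smc4, Tpx2 and Mxd3 crossed a ratio of 1, each under 1 or more alternatives.

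The share of Top2a-high cells, TNF-labelled then control, was 20.6% and 10.8% with 2 or more Top2a counts, 10.0% and 2.31% with 5 or more, and 6.82% and 0.926% after thinning. It was 13.0% and 4.61% without the deepest 5% of cells and 10.2% and 4.29% at 3000 to 6000 counts. Within the selected cells, 3 members instead of 6 were lower with Mki67 as the selecting gene, and 3 instead of 6 higher at 3000 to 6000 counts. In other cells, 1 member was higher after thinning, 1 with no minimum level and 2 with the 5% of cells highest in Top2a. There, 3 were lower with that top 5% and 4 with TMM scaling, in place of 9. The alternatives without shared barcodes, without the deepest cells and at 3000 to 6000 counts, and, within classes of cells, TMM scaling, thinning, the top 5% and other minimum levels, were chosen after seeing the data. Of the other lists, TMM scaling gave 4 instead of 2 other mitotic genes higher and 0 instead of 1 kinase inhibitor lower. S phase genes had 10 instead of 4 lower after thinning and 1 instead of 2 higher at 20 CPM. The MuvB list had 3 instead of 1 lower with no minimum level, and 2 after thinning or without the deepest 5% of cells. The cause of these moves was not tested. Depth limits Cenpa, Prr11 and Pif1 most.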
